A study of Mus musculus with 6 samples.

Results

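The genes described here are 9 growth factor receptors: the 4 FGF receptors Fgfr1, Fgfr2, Fgfr3 and Fgfr4, the receptors of the insulin-like growth factor system Igf1r, Igf2r and Insr, and the ERBB family members Erbb2 and Erbb3. They were picked by symbol as receptors for FGF, insulin-like growth factor and ERBB ligands, a list that leaves out the ERBB members Egfr and Erbb4. The rule uses no measured value, but it was written with earlier results of these data known. All 9 were found among the 22579 genes of the deposited count table, and 8 had enough reads to be tested. Fgfr4 did not pass the filter on low counts. The 3 control libraries came from littermates labelled Control and the 3 knockout libraries from Ddx20 knockout mice, all from THY1-positive spermatogonia at day 4, with about 1000 cells per library. The labels also write the knockout as cKO, without spelling out whether that stands for a conditional knockout. They do not name a Cre driver, a floxed allele, a strain or the number of mice behind a library. The labels do not tie libraries to separate animals, so p-values measure only how far these samples differ, and that spread may be technical. DDX20 is a DEAD-box RNA helicase of the SMN complex, and the series asks how its loss alters the transcriptome of these cells.

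FGF receptors, IGF1R, INSR, ERBB2 and ERBB3 are single-pass membrane proteins with an intracellular tyrosine kinase domain. Ligand binding pairs or reorders the receptors, which then phosphorylate each other and dock adaptor proteins that feed the RAS-ERK and PI3K-AKT pathways. IGF2R is a different kind of protein: it has no kinase domain, binds IGF2 and mannose 6-phosphate, and delivers cargo to lysosomes. ERBB2 has no known ligand and ERBB3 has little kinase activity of its own, so that the 2 work as partners. In the testis, FGF2 and IGF1 are among the factors used to keep spermatogonial stem cells dividing in culture, beside GDNF.

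The kinases among these receptors share a short catalytic loop, and the coding DNA of that loop is shown because it is the part in which the 8 kinase genes are easiest to compare. Capitals mark the codon of the catalytic aspartate, which all 8 genes carry, Erbb3 included. Sequences are from GENCODE M21 transcripts on mm10, 5′ to 3′ on the gene's strand, each within a single coding exon.
Fgfr1, chr8:25572344-25572367, plus strand: caccgaGACctggctgctaggaac
Fgfr2, chr7:130172910-130172933, minus strand: catcgaGATttggctgccagaaac
Fgfr3, chr5:33734353-33734376, plus strand: cacagaGACttggctgccagaaac
Fgfr4, chr13:55166864-55166887, plus strand: caccggGACctggctgcccgaaat
Igf1r, chr7:68212096-68212119, plus strand: cacagaGACcttgctgctaggaac
Insr, chr8:3161376-3161399, minus strand: caccggGACctggcagctcgaaac
Erbb2, chr11:98434247-98434270, plus strand: cacaggGACctagctgcccgaaac
Erbb3, chr10:128572533-128572556, minus strand: cataggGACcttgcgctccggaat
The FGF receptors differed from each other at 3 to 6 of these 24 bases, Igf1r from Insr at 6 and Erbb2 from Erbb3 at 7. The closest pair crossed families, with Fgfr1 and Igf1r differing at 2 bases, and Fgfr4 differed from Insr and from Erbb2 at 3. The search found no such loop in Igf2r.

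The receptors share no long stretch of identical sequence. Between coding sequences of any 2 of the 9 principal transcripts, the longest identical run was 26 bases, shared by Fgfr1 and Fgfr3, against a read length of 150 bp. That run lies at chr8:25570179-25570204 in Fgfr1 and chr5:33733894-33733919 in Fgfr3, on the plus strand in both.
Shared run of Fgfr1 and Fgfr3: gagatggagatgatgaaaatgattgg
Over whole transcripts the longest run was 43 bases, between Igf1r and Insr, whose coding sequences shared at most 19. The search of whole transcripts covered both strands, that of coding sequences the same strand only. Exons of other genes overlap 4 of the receptors. Fgfr1 overlaps Gm16159, Fgfr3 overlaps G630022F23Rik and Erbb2 overlaps Mien1, each on the opposite strand, and some annotated exons of Fgfr2 overlap Ctbp2 on its own strand. No strand setting is given in the sources used here, so reads in the opposite-strand overlaps cannot be told apart. In the overlap of Fgfr2 and Ctbp2 no strand setting could tell reads apart.

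Total counts ranged from 8428871 to 12497967 reads per library. Ddx20 itself had 668, 383 and 531 reads in controls against 128, 168 and 119 in knockouts, a log2 fold change of −1.89 ± 0.26 (SE; edgeR adjusted p 0.0118). That call was lost with knockout 1 and 2 as 1 library (adjusted p 0.0541), without knockout 1 (0.0554) and without knockout 3 (0.0620). Knockout 1 and knockout 2 were nearly alike. Averaged over genes, the chi-square between them was 1.78, against 1 for pure sampling noise and 11.96 to 104 for the other 14 pairs. The 3 knockouts may therefore count as fewer independent samples, and SDs and p-values below may be too small. Mitochondrially encoded transcripts took 14.0% to 16.9% of reads in controls against 19.8% to 20.1% in knockouts. Germ cell transcripts were abundant in all libraries: 11 spermatogonial markers summed to 3601 to 4329 CPM in controls against 3918 to 4306 CPM in knockouts. Dazl and Ddx4 made up most of that sum. Both had a log2 fold change above 0 (0.18 and 0.35), and neither was called (edgeR adjusted p 0.645 and 0.233). The other 9 markers, set apart after their values were seen, all had a log2 fold change below 0. They summed to 704 to 779 CPM in controls against 459 to 497 CPM in knockouts, without overlap. Setting apart the markers above 0 fixed that shared direction, so it is given as a description. Of those, Gfra1, Ret and Etv5 were called lower (edgeR adjusted p 0.0395, 0.0415 and 0.0471). The part of that shift in the receptor values was not tested. CPM is the usual depth-scaled unit of read counts, here with TMM scaling, which corrects for library composition.

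None of the 8 tested receptors passed the test between knockout and control, although all 8 had a lower mean in knockouts. Their median log2 fold change was −0.46, against 0.01 over all 14766 genes tested. By the edgeR quasi-likelihood test with Benjamini-Hochberg adjustment 0 of 8 were called at an adjusted p under 0.05, where 4.83% of all genes tested were called, 2.03% higher and 2.8% lower. At an unadjusted p under 0.05 it was 1 receptor, Igf1r, where 24.1% of all genes had such a value. DESeq2 called 0 and limma-voom called 1, Fgfr2, where these tools called 9.02% and 18.7% of genes. A log2 fold change below 0 was found in 49.7% of all genes tested. All 8 were below 0 also with DESeq2 size factors and with library size alone, the latter of which moved the median of all genes to −0.26 and that of the receptors to −0.71. Only 6 of 8 were below 0 by limma-voom, without control 1 and without control 3, and 7 of 8 without knockout 1 and once a lowess trend with exon length and GC content was removed.

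**Figure D1:**
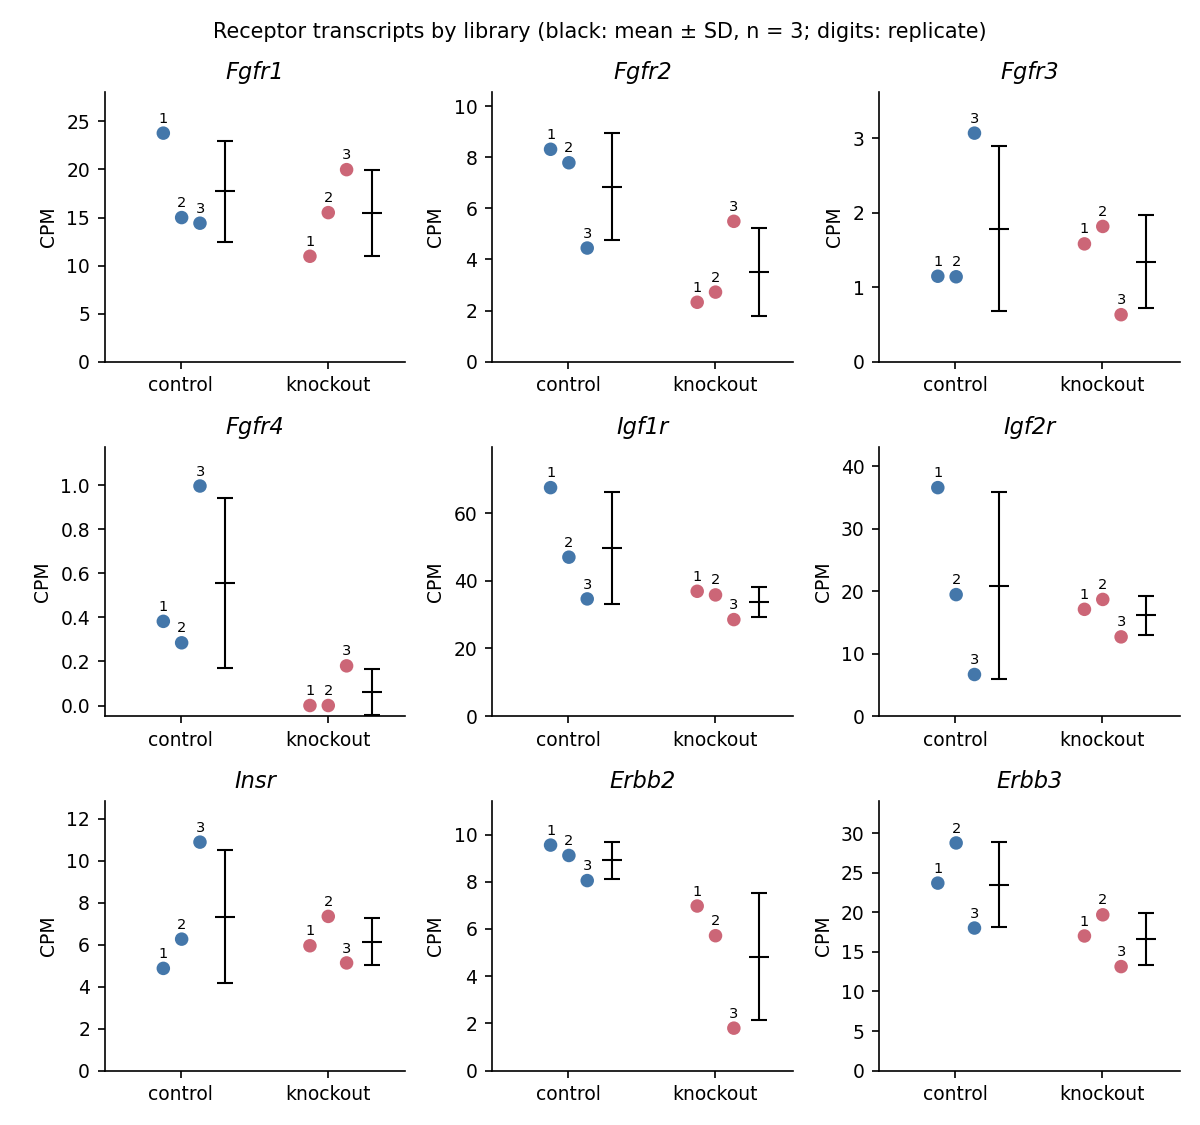
CPM of each receptor in the 3 control (blue) and 3 knockout (red) libraries, each panel with its own linear axis. Digits are replicate numbers and black bars give the mean ± SD (n = 3). The highest library is a control in all 9 panels, and apart from Erbb2 and the sparsely read Fgfr4 the groups overlap.

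Library by library, the highest value of a receptor was always in a control, but not in the same control. It was control 1 for 5 receptors (Fgfr1, Fgfr2, Igf1r, Igf2r and Erbb2), control 3 for 3 (Fgfr3, Fgfr4 and Insr) and control 2 for Erbb3. The lowest value lay in a knockout for 7 receptors and in a control for Igf2r and Insr. Together the 9 receptors took 176, 135 and 101 CPM in controls 1 to 3 and 98.8, 107 and 87.6 CPM in knockouts 1 to 3. Those sums overlapped between the groups, and Igf1r alone made up 32.6% to 38.4% of each. In bulk RNA, fewer cells of a type and less RNA per cell cannot be told apart.

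Across receptors, levels were compared as CPM per kb of exon, since a longer transcript collects more reads. Erbb3 stood at the top in controls with 3.90 ± 0.894 CPM per kb (SD, n = 3), followed by Igf1r with 2.96 ± 0.989 and Igf2r with 2.25 ± 1.61. Fgfr1 had 1.80 ± 0.532 and Erbb2 1.71 ± 0.148 CPM per kb. A step without overlap of the 3 control libraries followed, down to Fgfr2 with 0.663 ± 0.203 CPM per kb, a step not seen per kb of the principal transcript. Insr had 0.534 ± 0.229, Fgfr3 0.249 ± 0.155 and Fgfr4 0.157 ± 0.109 CPM per kb in controls. All other neighbours in this order overlapped between control libraries.

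In knockouts the order was Erbb3 (2.76 ± 0.547 CPM per kb), Igf1r (2.01 ± 0.271), Igf2r (1.74 ± 0.334), Fgfr1 (1.57 ± 0.456), Erbb2 (0.927 ± 0.518), Insr (0.447 ± 0.0815), Fgfr2 (0.340 ± 0.167), Fgfr3 (0.187 ± 0.0876) and Fgfr4 (0.0169 ± 0.0293). Only Fgfr3 and Fgfr4 did not overlap as neighbours there. The order depends on the length used. Per kb of the principal coding transcript alone, Igf1r (4.36 ± 1.46) stood above Erbb3 (3.90 ± 0.894) in controls and Fgfr1 (3.08 ± 0.897) above Igf1r (2.96 ± 0.399) in knockouts, with SDs wider than those gaps. Fgfr2 had 2.06 ± 0.631 CPM per kb on that scale in controls, above Erbb2 with 1.78 ± 0.154, since its annotated exons span 10328 bases and its principal transcript 3323. The step between Erbb2 and Fgfr2 was thus lost on that scale, where the sole neighbours without overlap in controls were Erbb2 and Insr (0.785 ± 0.336).

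**Figure D2:**
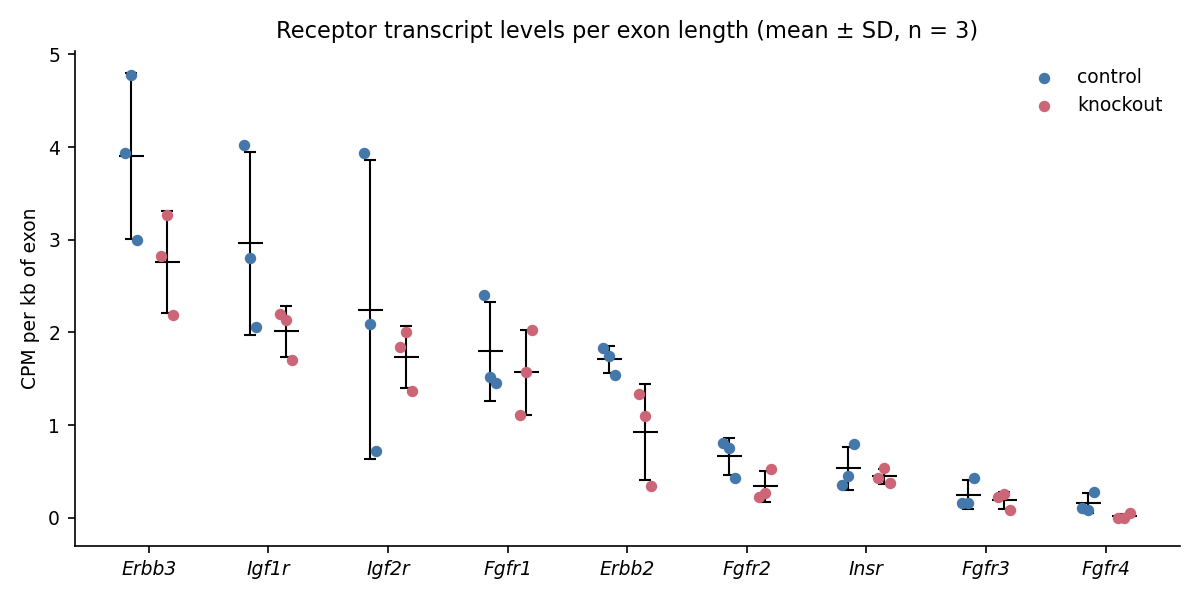
Levels of the 9 receptors in CPM per kb of exon, ordered by the control mean, with 3 control (blue) and 3 knockout (red) libraries and the mean ± SD (n = 3). Erbb3, Igf1r, Igf2r, Fgfr1 and Erbb2 average 1.71 to 3.90 CPM per kb in controls, and the other 4 receptors 0.157 to 0.663.

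Fgfr1, the receptor with the highest level of the FGF family (chromosome 8, 25513654 to 25575718), had 23.8, 14.997 and 14.4 CPM in controls against 11.0, 15.5 and 19.98 CPM in knockouts. Its groups overlapped widely. The log2 fold change was −0.19 ± 0.30 (SE) and had a 95% interval of −0.85 to 0.47 and an edgeR adjusted p of 0.745. Its sign turned without control 1 (0.073), without knockout 1 (0.00955) and once the trend with length and GC was removed (0.017). FGFR1 is a main receptor for FGF2 in many cell types.

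Fgfr2, which in alternative splice forms binds different sets of FGFs (chromosome 7, 130162451 to 133123350), had the lowest log2 fold change of the tested receptors. It had 8.31, 7.78 and 4.45 CPM in controls against 2.32, 2.72 and 5.49 CPM in knockouts. Knockout 3 lay above control 3, so that the groups overlapped through that pair of libraries. The log2 fold change was −0.96 ± 0.46 (SE), 95% interval −1.98 to 0.06, with an edgeR adjusted p of 0.237, which ran from 0.0197 by limma-voom to 0.607 without knockout 1. By limma-voom the log2 fold change was −1.30. Some annotated exons of Fgfr2 overlap Ctbp2 on the same strand, and the part of such reads in these values was not tested.

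Fgfr3, best known as a brake on bone growth (chromosome 5, 33721674 to 33737068), was close to the limit of detection. Its reads numbered 12, 12 and 40 in controls against 17, 20 and 7 in knockouts, or 1.15, 1.14 and 3.07 CPM against 1.58, 1.81 and 0.630 CPM. The order of the groups rested on control 3. Without it the log2 fold change of −0.42 ± 0.78 (SE, adjusted p 0.797 by edgeR, 95% interval −2.15 to 1.32) turned to 0.23, and by limma-voom it was 0.027.

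Fgfr4 (chromosome 13, 55152640 to 55168759) was the least read of the 9, with 4, 3 and 13 reads in controls against 0, 0 and 2 in knockouts. Relative to total counts its level was 11.5 times higher in controls, with an exact 95% interval of 2.79 to 101 for counting error alone, as PCR reads are not independent molecules. A library without a read allows up to 3 reads, which is 0.279 CPM in knockout 1 and 0.272 CPM in knockout 2. The controls' 0.382, 0.285 and 0.997 CPM lie above that limit, that of control 2 by little. DESeq2, which kept the gene, gave an adjusted p of 0.368.

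Within the FGF receptor family, Fgfr1 held the largest part of the signal in each library. Of the summed CPM per kb of the 4 genes it took 69.2%, 60.5% and 56.1% in controls against 71.4%, 75.2% and 75.1% in knockouts. Fgfr2 took 23.1%, 30.003% and 16.6% in controls against 14.5%, 12.6% and 19.7% in knockouts. The ratio of Fgfr1 to Fgfr2 per kb was 2.99, 2.02 and 3.39 in controls against 4.94, 5.96 and 3.81 in knockouts, without overlap. Of 4 ratios between receptors that were compared, this was the one with the smallest p (0.1 by a two-sided exact permutation test, adjusted p 0.4), and 0.1 is the smallest p that 3 against 3 libraries allow. Per kb of the principal transcript each of these ratios was 1.58 times lower, at 1.89, 1.27 and 2.14 against 3.12, 3.77 and 2.41, and the share of Fgfr2 was 25.6% to 41.2% in controls and 18.9% to 28.3% in knockouts. The length used sets the size of the ratio and leaves its comparison between groups as it was.

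Igf1r, the receptor through which IGF1 and IGF2 drive growth and survival (chromosome 7, 67952827 to 68233668), had the largest read counts of the 9. It stood at 67.5, 47.0 and 34.6 CPM in controls against 36.9, 35.8 and 28.5 CPM in knockouts. Control 3 lay below knockouts 1 and 2, and the other 2 controls above all knockouts. The mean was 49.7 ± 16.6 CPM (SD, n = 3) against 33.8 ± 4.55 CPM, a log2 fold change of −0.56 ± 0.24 (SE). Its 95% interval of −1.09 to −0.02 did not reach 0, but its edgeR adjusted p over all genes was 0.191. Without control 1 the log2 fold change was −0.28 (adjusted p 0.421) and without control 3 it was −0.76 (0.0707). Once the trend with length and GC was removed it was −0.30.

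Igf2r, the clearance receptor of IGF2 and an imprinted gene of the mouse (chromosome 17, 12682406 to 12769664), varied more between controls than between groups. It had 36.6, 19.5 and 6.67 CPM in controls against 17.1, 18.7 and 12.7 CPM in knockouts, so that all 3 knockouts lay within the range of the controls. The log2 fold change of −0.37 ± 0.47 (SE, edgeR adjusted p 0.684, 95% interval −1.41 to 0.67) turned to 0.31 without control 1 and was 0.23 by limma-voom.

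Insr, the insulin receptor (chromosome 8, 3122061 to 3279617), had 4.87, 6.26 and 10.9 CPM in controls against 5.95, 7.35 and 5.13 CPM in knockouts. Here too the knockouts lay within the range of the controls. The log2 fold change was −0.26 ± 0.39 (SE), 95% interval −1.12 to 0.60, with an edgeR adjusted p of 0.736, and it was 0.14 without control 3. INSR and IGF1R can join in hybrid receptors. Per kb, Igf1r stood 11.3, 6.14 and 2.61 times above Insr in controls against 5.08, 3.99 and 4.55 times in knockouts (exact permutation p 0.7, adjusted p 0.7). The ratio of Igf1r to Igf2r was 1.75 ± 0.994 (SD, n = 3) in controls and 1.17 ± 0.0947 in knockouts (exact permutation p 0.5, adjusted p 0.667), and that ratio too depends on the length, at 1.44, 1.88 and 4.05 in controls per kb of the principal transcript.

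Erbb2, the partner receptor of the ERBB family (chromosome 11, 98412470 to 98437716), was the sole tested receptor whose groups did not overlap. It had 9.55, 9.11 and 8.05 CPM in controls against 6.97, 5.71 and 1.80 CPM in knockouts. Groups that did not overlap with the knockouts lower were found in 15.8% of all genes tested, so that 1 of 8 receptors is near the background. The log2 fold change was −0.88 ± 0.46 (SE), 95% interval −1.90 to 0.13, with an edgeR adjusted p of 0.273. Its size rested on knockout 3, since without it the log2 fold change was −0.49 (adjusted p 0.403).

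Erbb3, the neuregulin receptor that signals mainly through ERBB2 (chromosome 10, 128567523 to 128589652), had 23.7, 28.8 and 18.01 CPM in controls against 17.0, 19.7 and 13.1 CPM in knockouts. Knockout 2 lay above control 3, and the rest of the libraries followed their group. The mean was 23.5 ± 5.38 CPM (SD, n = 3) against 16.6 ± 3.29 CPM, a log2 fold change of −0.50 ± 0.25 (SE), 95% interval −1.06 to 0.06, with an edgeR adjusted p of 0.263. Per kb, Erbb3 stood 2.15, 2.73 and 1.94 times above Erbb2 in controls against 2.11, 2.98 and 6.32 times in knockouts. Apart from knockout 3 the ratios ran from 1.94 to 2.98 in both groups (exact permutation p 0.3, adjusted p 0.6).

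**Figure D3:**
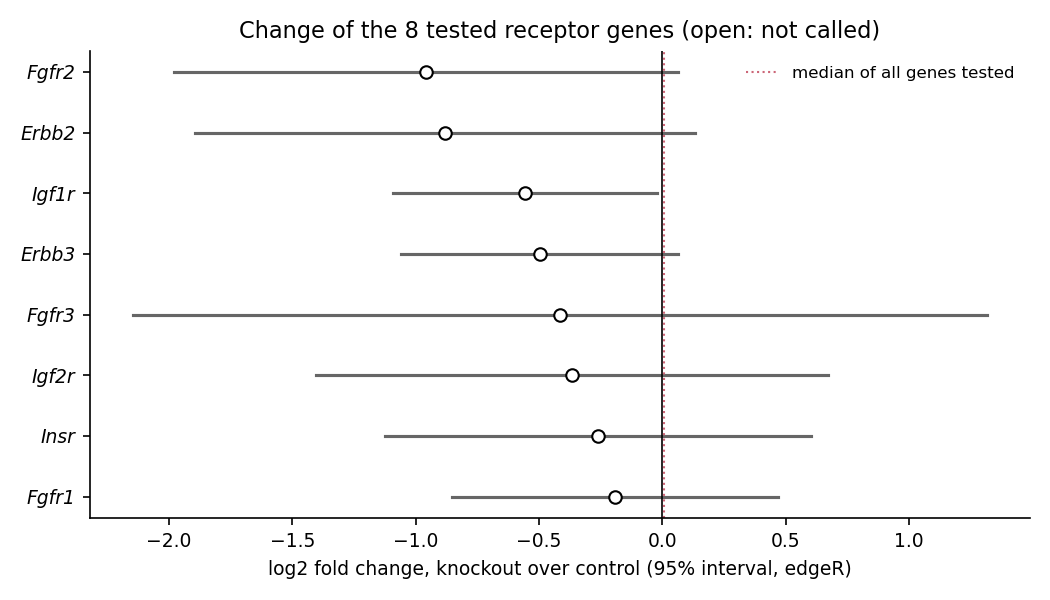
Log2 fold change of knockout over control for the 8 tested receptors with 95% intervals from the edgeR fit. Points lie between −0.96 (Fgfr2) and −0.19 (Fgfr1), and the interval of Igf1r alone ends below 0 before adjustment over all genes.

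The genes whose levels followed a receptor most closely over the 6 libraries were sought for the 3 receptors with the smallest p, by Pearson correlation of log2(CPM + 1) with genes of at least 10 CPM. The libraries share their depth and group, so these values only describe. For Igf1r they were Dnd1, a germ cell RNA-binding protein gene (r = 0.994), Rasgef1b (0.993) and Zfp36l1, which encodes an mRNA decay factor (0.993). For Fgfr2 they were the 14-3-3 gene Ywhab (0.997), the kinase gene Sik3 (0.996) and Ipmk, an inositol phosphate kinase gene (0.993). For Erbb3 they were Gtf3c5, a subunit of an RNA polymerase III factor (0.990), the topoisomerase gene Top1 (0.977) and the meiotic cohesin gene Stag3 (0.977). These were the highest of 7949 genes compared with Igf1r and with Erbb3 and of 7950 compared with Fgfr2.

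Among the ligands, Fgf5 was read almost solely in knockouts. Of 22 FGF genes sought, 21 were listed and 9 passed the filter on low counts, with 1, Fgf5, called higher in knockouts (2.03% of all genes were) and 0 lower. Fgf5, which encodes a secreted FGF known from the primed embryonic epiblast and from hair follicles (chromosome 5, 98254184 to 98277030), had 0, 0 and 1 reads in controls against 34, 37 and 54 in knockouts. Relative to total counts the ratio was 109, with an exact 95% interval of 19.2 to 4327 for counting error only. In CPM it was 0, 0 and 0.0767 against 3.16, 3.36 and 4.86. Fgf5 passed the filter only through the knockout libraries, so that a gene at its level had to differ between the groups, and its edgeR call (adjusted p 0.0136) and the lack of overlap are given as a description. The call was lost without knockout 1 (adjusted p 0.0805), 2 (0.0854) or 3 (0.0683) and with knockout 1 and 2 as 1 library (0.0831).

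Fgf2, named after its values were seen, had 7, 45 and 65 reads in controls against 116, 133 and 58 in knockouts. In CPM it was 0.669, 4.27 and 4.98 against 10.8, 12.1 and 5.22. All knockouts lay above all controls, but knockout 3 by little, and the log2 fold change of 1.49 ± 0.61 (SE) had an edgeR adjusted p of 0.168. The adjusted p was 0.111 by DESeq2 and 0.0341 by limma-voom. Fgf2 shares exon sequence with Nudt6 on the other strand and Gm43439 on its own. The 9 FGF genes that passed the filter, Fgf5 among them, had a median log2 fold change of 0.62, which does not stand for the 21 listed.

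FGF co-receptors and heparan sulfate carriers, which hold FGFs at the cell surface, gave no call by edgeR: 0 of 12 tested of 16 sought, with 4 higher and 1 lower at an unadjusted p under 0.05 (24.1% of all genes). DESeq2 called 1 higher and 1 lower (9.02% of all genes) and limma-voom 4 higher and 1 lower (18.7%). The smallest p was that of Sdc4, a syndecan gene and the most read member. It had 484, 883 and 856 CPM in controls against 355, 348 and 463 CPM in knockouts, a log2 fold change of −0.93 ± 0.25 (SE, edgeR adjusted p 0.0562). Sdc4 was below the threshold with 7 other settings, among them DESeq2 (adjusted p 0.00167) and limma-voom (5.63e-05). Fgfrl1, the FGF receptor-like gene without a kinase domain, named after its values were seen, had 10.7 ± 2.24 CPM (SD, n = 3) in controls and 9.68 ± 1.86 CPM in knockouts. The list median was 0.44.

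In the IGF system, 2 binding protein genes rose and the ligand genes did not pass. Of 14 genes sought 9 were tested, with 2 called higher and 0 lower (2.03% and 2.8% of all genes) and a median log2 fold change of 0.84. Igfbp6, whose product prefers IGF2, rose from 20.7, 26.6 and 32.6 CPM to 47.8, 45.7 and 59.6 CPM, a log2 fold change of 0.94 ± 0.21 (SE, edgeR adjusted p 0.0358). Igfbp7 rose from 39.6, 17.8 and 25.1 CPM to 70.6, 71.8 and 43.2 CPM, a log2 fold change of 1.17 ± 0.29 (SE, edgeR adjusted p 0.0488). Neither gene's groups overlapped. Both calls were lost without control 2 (0.0863 and 0.111), without each of knockouts 1, 2 and 3, with the close pair as 1 library (0.147 and 0.195), under library size scaling (0.0780 and 0.144) and once the trend with length and GC was removed (0.112 and 0.196), and that of Igfbp7 also without control 3 (0.101). Igfbp7 shares exon sequence with Polr2b on the other strand.

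Igf1, named after its values were seen, was read at 166, 139 and 197 CPM in controls against 180, 180 and 199 CPM in knockouts, a log2 fold change of 0.15 ± 0.17 (SE, edgeR adjusted p 0.615, 95% interval −0.21 to 0.52). Igf2, likewise, had 5 reads over the controls and 7 over the knockouts and was not tested. The ligand gene Igf1 was thus abundant in these libraries and Igf2 barely read.

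Markers of other cell types moved with the knockout libraries in which Igfbp6, Igfbp7 and Fgf5 were higher. The summed level of 10 Sertoli cell markers was 65.3 to 80.9 CPM in controls and 144 to 183 CPM in knockouts. Clu (30.6 ± 6.45 to 90.3 ± 14.9 CPM, SD, n = 3) and Inha (9.49 ± 2.05 to 32.9 ± 4.91 CPM) carried most of that rise. The sums of the other 8 overlapped (29.9 to 34.5 against 29.9 to 48.8 CPM), but only through knockout 2, which had 0 Rhox5 reads. Sox9 (5.68 against 3.54 CPM) and Rhox5 (11.6 against 9.29 CPM) had lower means in knockouts, and neither they nor Wt1 and Gata4 passed the test. Rhox5 had 126, 120 and 148 reads in controls against 168, 0 and 136 in knockouts, so its lower mean rested on knockout 2. That of 8 myoid and smooth muscle markers was 159 to 189 against 361 to 492 CPM, and that of 8 stromal markers 745 to 1119 against 1549 to 1707 CPM. Sums for 8 endothelial markers (55.2 to 59.3 against 77.1 to 79.6 CPM), 8 macrophage markers (723 to 1747 against 1970 to 2825 CPM) and 8 T lymphocyte markers (30.5 to 38.7 against 68.3 to 93.8 CPM) did not overlap either. A few genes carried most of some of these rises too. They were Acta2 (60.8 to 182 CPM) and Myl9 (83.6 to 208 CPM) for myoid cells. Dcn (291 to 655 CPM) was that gene for stroma and Lyz2 (657 to 1384 CPM) for macrophages. In these 5 lists, the markers with a lower mean in knockouts were Tagln, Pdgfra, Cdh5, Csf1r and Cd8a. Leydig cell markers, 7 of 8 listed, did overlap (35.7 to 68.5 against 48.7 to 68.1 CPM). Called members numbered 3 of 7 tested for Sertoli, 3 of 7 for myoid, 2 of 8 for stromal and 3 of 8 for T lymphocyte markers, all higher, 0 of 8 for endothelial cells, 0 of 8 for macrophages, 0 of 7 for Leydig cells, and 3 of 11 for spermatogonia, all lower. Over all genes tested 2.03% were called higher and 2.8% lower. Of the called Sertoli markers, Cldn11 had 6, 2 and 4 reads in controls against 54, 37 and 30 in knockouts. Like Fgf5, it passed the filter only through the knockout libraries, so its call is a description. The called myoid marker Actg2 was also low in controls, with 9, 6 and 19 reads against 119, 139 and 72. Among the defining Sertoli markers, Amh had at most 2 reads in any library and Fshr had 3, 0 and 0 reads in controls against 37, 30 and 7 in knockouts. The part of these cells in the ligand, binding protein and receptor values was not tested.

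**Figure D4:**
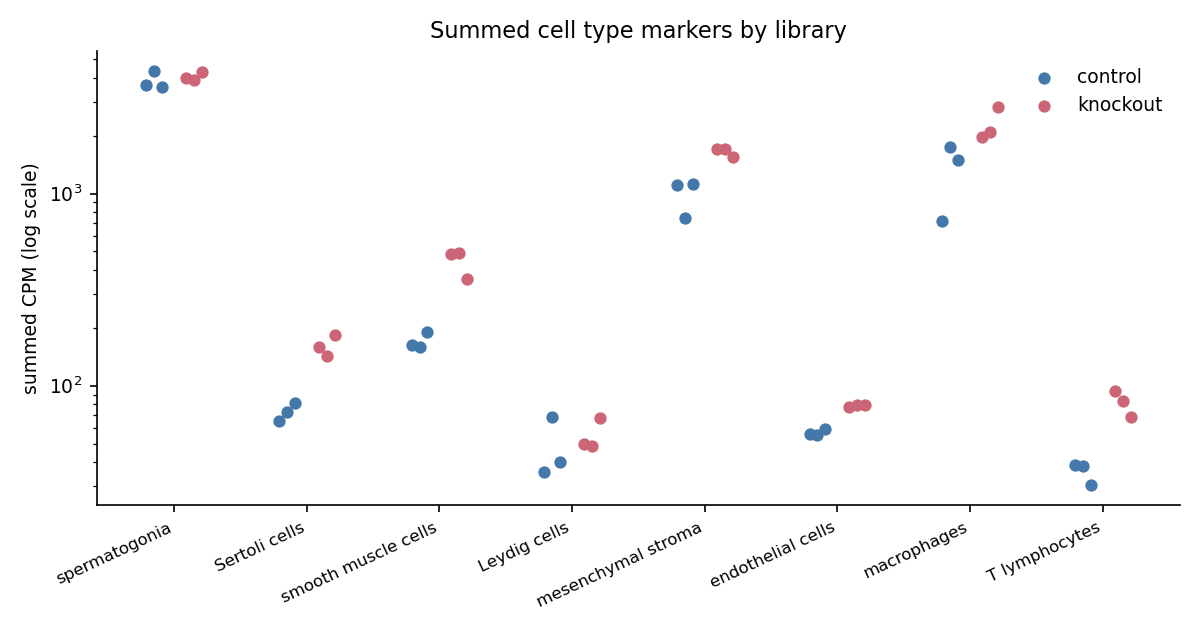
Summed CPM of each cell type marker list in the 3 control (blue) and 3 knockout (red) libraries, on a log axis. The spermatogonial sum lies at 3601 to 4329 CPM in all 6 libraries, carried by Dazl and Ddx4, whose means are higher in knockouts. The other 9 of its 11 markers, set apart after their values were seen, sum to less in knockouts (704 to 779 against 459 to 497 CPM). Of the 7 other lists, 6 are higher in each knockout than in each control. Clu, Inha, Acta2, Myl9, Dcn and Lyz2 carry most of the rise of their lists.

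ERBB ligands and regulators gave no call by edgeR: 0 of 12 tested of 17 sought, with 2 at an unadjusted p under 0.05 (24.1% of all genes), 1 called by DESeq2 (9.02%) and 2 by limma-voom (18.7%), all lower. These counts are near or below the background. The smallest p was that of Adam17, the protease gene that releases several ERBB ligands from the membrane. It had 52.2, 54.0 and 54.8 CPM in controls against 35.3, 29.0 and 38.5 CPM in knockouts, which did not overlap. The log2 fold change was −0.65 ± 0.17 (SE), and its adjusted p was 0.0571 by edgeR and 0.0266 by DESeq2. Adam17 overlaps exons of Iah1 on the other strand. Nrg1, the gene of the ERBB3 ligand neuregulin 1, named after its values were seen, had 4.59 ± 1.76 CPM (SD, n = 3) in controls and 6.93 ± 1.20 CPM in knockouts (edgeR adjusted p 0.421).

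Adaptors and signal relays that dock on these receptors had a median below 0, and by edgeR a single member was called, in the other direction. Of 29 genes 28 were tested, with 1 called higher and 0 lower (2.03% and 2.8% of all genes) and a median log2 fold change of −0.38. Other settings called more members, most of them lower: 1 higher and 3 lower by DESeq2, 2 higher and 5 lower by limma-voom, and 1 higher and 4 lower under library size scaling. Of all genes, DESeq2 called 9.02% and limma-voom 18.7%. Library size scaling called 1378 of 14766 genes, 83.6% of them lower. Shc3, an adaptor gene known mainly from neurons, rose from 1.24, 1.23 and 1.76 CPM to 4.83, 6.17 and 6.39 CPM, a log2 fold change of 2.02 ± 0.46 (SE, edgeR adjusted p 0.0377). That call was lost without control 2 (0.0705) or without each of knockouts 1, 2 and 3 (0.101 to 0.213) and with the close pair as 1 library (0.188). At an unadjusted p under 0.05 stood 8 lower and 2 higher members, where 24.1% of all genes had such a value in either direction. Of the 28, 9 did not overlap with the knockouts lower, where 15.8% of all genes did so.

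For a few members chosen once values were known, levels were as follows. Irs2, which couples INSR and IGF1R to PI3K, had 29.5 ± 8.75 CPM (SD, n = 3) in controls and 16.6 ± 1.71 CPM in knockouts (log2 fold change −0.82, edgeR adjusted p 0.0799). Its adjusted p was 0.0476 by DESeq2 and 0.0358 by limma-voom. Plcg1, a phospholipase gene downstream of FGF and ERBB receptors, had 15.2, 16.99 and 12.8 CPM in controls, all above the 8.27, 7.80 and 6.48 CPM of the knockouts (log2 fold change −0.99, edgeR adjusted p 0.0615). DESeq2 gave Plcg1 an adjusted p of 0.0321 and limma-voom 0.0102. Frs2, the docking protein gene of the FGF receptors, had 33.5 ± 7.57 against 34.2 ± 3.19 CPM, with a log2 fold change of 0.03 and a 95% interval of −0.43 to 0.49.

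Genes that ERK signalling is known to induce were called in both directions. Of 17 sought 15 were tested, with 3 called lower, 1 called higher (2.8% and 2.03% of all genes) and a median log2 fold change of −0.05. Spred1 and Spred2, inhibitors of RAS-ERK signalling, fell by 0.90 and 1.20 on the log2 scale, and the transcription factor gene Etv5 fell by 0.65, while the immediate early gene Fos rose with a log2 fold change of 0.88 (edgeR adjusted p 0.0221, 0.0287, 0.0471 and 0.0328). All 4 calls were lost without control 2, without any 1 of the knockouts and with the close pair as 1 library (adjusted p 0.0513 to 0.213). Those of Etv5 and Fos were lost also without control 3, and that of Fos under library size scaling (0.117) and once the trend with length and GC was removed (0.106). Dusp6, a phosphatase gene often read as a gauge of ERK activity and named after its values were seen, had 94.9, 88.5 and 66.1 CPM in controls against 52.0, 61.1 and 52.4 CPM in knockouts (edgeR adjusted p 0.0773). Its adjusted p was 0.0455 by DESeq2 and 0.0235 by limma-voom. This list was compiled with earlier results for several of its members known.

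The other receptor tyrosine kinases gave a comparison for the 9. They come from mixed cell types: Kdr and Tek are also endothelial markers here, Pdgfra a stromal, Csf1r a macrophage and Ret a spermatogonial marker. The ERBB members Egfr and Erbb4 and the insulin receptor-related gene Insrr are in this list and not among the 9. Of 50 sought 38 were tested, with 2 called lower, Kit and Ret, and 0 higher. The median log2 fold change of the 38 was 0.23 against −0.46 for the 8 tested receptors, a difference that was not tested. Over all genes 4.83% were called, 2.8% lower, so that 2 of 38 is near the background. Kit, the receptor of differentiating spermatogonia, fell by 1.02 and Ret, the GDNF receptor kinase, by 0.67 on the log2 scale (edgeR adjusted p 0.0269 and 0.0415). Both were lost without control 2, without any 1 of the knockouts and with the close pair as 1 library (0.0545 to 0.240), and Ret also with the length and GC trend removed (0.0564). Egfr, the founding ERBB member, named after its values were seen, had 16.0, 2.75 and 0.690 CPM in controls against 7.72, 6.08 and 7.11 CPM in knockouts, and Erbb4, likewise, had 16 reads over the controls and 5 over the knockouts.

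**Figure D5:**
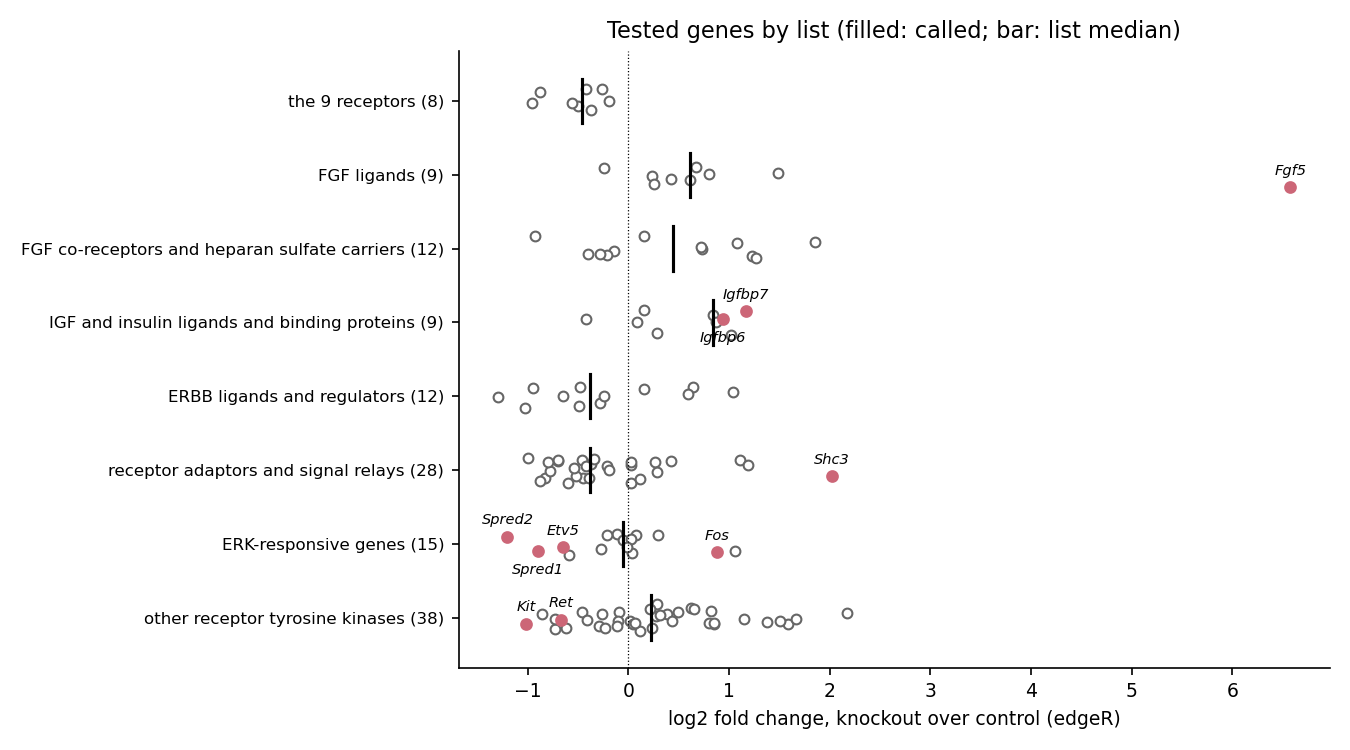
Log2 fold changes of all tested genes of each list, with the number tested in parentheses. Filled points were called by edgeR and carry their symbol, open points were not, and bars mark list medians. The 8 tested receptors lie between −0.96 and −0.19 with none called, and Fgf5 lies far to the right at 6.57, a value that depends on the prior count since the controls held 1 read.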

How the data were processed

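RNA of 6 libraries was counted per Ensembl gene by the authors, who deposited raw read counts with no normalization. Per the labels' protocols, about 1000 cells per library were reverse transcribed from an anchored oligo-dT primer, amplified with SMART-seq2 and read as pairs of 150 bp, with no molecular identifiers named. Per the submitters' processing notes, STAR 2.7.5c, Trimmomatic 0.39, edgeR, DESeq2 and StringTie 2.1.7 were used, in roles that are not stated, with build mm10. How reads were counted, with what strand setting, and which genes were filtered out beforehand is not given in the sources used here. Besides the libraries, the deposited table holds a sum of counts, equal to that of the 6 libraries in all 22579 genes, and the authors' mean over libraries. Neither entered a test.

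Symbols, positions and exon lengths came from GENCODE M21 (22562 identifiers matched). Genes were tested with the edgeR 4.0.16 quasi-likelihood test in R 4.3.3 (robust, TMM, filterByExpr, genotype as sole term). The test was tried on simulated data. p-values are two-sided, adjusted by Benjamini-Hochberg over 14766 genes, and called under 0.05. Standard errors were taken as the log2 fold change divided by the root of the F statistic. Intervals of read ratios and the floor of 3 reads cover counting error only. DESeq2 1.42.0 and limma 3.58.1 (voom with sample weights) were alternatives, with 16 settings in all. The trend with length and GC content was removed by lowess (span 0.3). Receptors and lists were chosen with earlier results of these data known. Named genes were the 9 receptors, Ddx20 and, per list, all called members (4 by smallest p where over 5 were called) or the one with the smallest p. Other names are marked.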

Additional observations from a re-analysis of the deposited data

How the results depend on the processing

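The count of called receptors stayed at 0 in 15 of 16 settings and was 1 by limma-voom, and at 0 whichever library was left out. By limma-voom the counts were 2 for FGF ligands, 5 for co-receptors, 2 for ERBB ligands and regulators, 7 for adaptors and 4 for other receptor kinases. By DESeq2 they were 2 for co-receptors, 1 for ERBB ligands and regulators and 4 for adaptors. Library size scaling gave 1 for co-receptors, 0 for the IGF list, 1 for ERBB ligands and regulators and 5 for adaptors. Without a filter on low counts 1 co-receptor gene was called. With knockout 1 and 2 as 1 library the counts were 0 for FGF ligands, the IGF list, adaptors, ERK-responsive genes and other receptor kinases, and 1 gene was called in the whole table. With the length and GC trend removed they were 1 for co-receptors, 0 for the IGF list and 1 for other receptor kinases. Leaving out 1 library gave 0 to 1 for FGF ligands, co-receptors and adaptors, 0 to 3 for the IGF list, 0 for ERBB ligands and regulators, 0 to 4 for ERK-responsive genes and 0 to 2 for other receptor kinases. Those fits called 5, 10 and 3 genes in all without knockout 1, 2 and 3, 182 without control 2, and 839 and 816 without control 1 and 3, against 713. DESeq2 called 1602, limma-voom 2765 and library size scaling 1378, of which 83.6% were lower, where 413 of 713 were lower otherwise. Causes of these differences beyond the fewer samples were not tested.

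Signs turned for 4 receptors, none of them called in any setting. Fgfr1 was at 0.017 with the length and GC trend removed, and ran from −0.42 to 0.073 when 1 library was left out. Fgfr3 was at 0.027 by limma-voom and ran from −0.68 to 0.23, Igf2r was at 0.23 by limma-voom and ran from −0.79 to 0.31, and Insr ran from −0.49 to 0.14. Fgfr2, Igf1r, Erbb2 and Erbb3 stayed below 0 in all 16 settings, from −1.44 to −0.73, −0.85 to −0.28, −1.23 to −0.49 and −0.75 to −0.31. The labels number replicates 1 to 3 in both groups but do not say that a number marks a shared litter. Deviations of same-numbered libraries correlated at 0.00757, 0.0135 and 0.0277, and knockout 2 correlated more with control 1 (0.0201). These values are small and cannot tell whether equal numbers share a litter or a batch. With the replicate block 1 co-receptor gene, 0 adaptors and 1 other receptor kinase were called, 683 genes in all and 0 receptors, and the adjusted p was 0.0446 for Sdc4, 0.0592 for Shc3 and 0.0502 for Ret. Depth limits Fgfr3 and Fgfr4 most, where 1 read is worth 0.0767 to 0.0955 CPM.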
